A study of Mus with 2 samples.

Results

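Matricellular proteins and small proteoglycans are the non-collagen components of the extracellular matrix that bind collagen fibers, growth factors and cell surface receptors. They were represented by 10 genes, Sparc, Fn1, Lum, Dcn, Bgn, Postn, Thbs1, Thbs2, Spp1 and Tgfbi. These were chosen by name from among the 20144 genes that the array probes could be matched to. The choice was made with earlier results of these data known, so the counts and shares below are description only. The measurements came from bone marrow derived macrophages (BMDMs) of male C57BL6/J mice, 10 weeks old, whose marrow cells were cultivated for 7 d with M-CSF at 10 ng/mL, the growth factor that drives macrophage differentiation. For 24 h the cells of both groups then received IL-4 (10 ng/mL), a cytokine used to obtain M2 macrophages. One group received DMSO, the solvent, and the other received 10 µM GW4064, a synthetic agonist of the bile acid receptor FXR. The comparison asked which transcripts changed when FXR was stimulated during M2 polarization. RNA from each group was read on 1 Agilent array with 1 color. M-CSF cultures of whole marrow can keep some adherent stromal cells beside the macrophages, and the cells were not sorted before the array.

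Each condition had 1 array, so no spread between replicates could be estimated and no test was made, and every difference below describes these 2 cultures. The signal of a spot is its brightness after the scanner software had subtracted the background, in arbitrary units. To compare the arrays, each was scaled on the log2 scale to its own 75th percentile, a signal of 1209 (DMSO) or 1265 (GW4064). A log2 difference is the GW4064 value minus the DMSO value, so that -1 is a 2-fold lower signal with GW4064. The error written after a difference was propagated from the software's own error of each spot, which was between 10.0% and 11.2% of the signal for the members measured. It covers reading of the spots and not the spread between cultures. Probes printed several times and well above background gave a second measure of technical spread, a median SD of 0.077 on the log2 scale over their copies (234 probes). It was larger for dim probes, 0.141 for those with a DMSO signal under 200 (38 probes). Signals of different probes cannot be compared with each other, since each probe binds its transcript with its own strength.

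Small leucine-rich proteoglycans such as decorin, biglycan and lumican coat collagen fibrils and hold TGF-β, and fibroblasts are a main source of them. Matricellular proteins such as SPARC, the thrombospondins and periostin change how cells attach to the matrix and are made during wound repair. Osteopontin, fibronectin and TGFBI are matrix adhesion proteins that macrophages are also known to secrete. The 10 genes were covered by 11 probes, 2 of them for Sparc. Of the 10 genes, 9 were well above background on both arrays, and Lum was not well above background on either. Of the 9 genes measured, 7 were lower and 2 were higher on the GW4064 array. The median of their log2 differences was -0.80. In RNA from a whole culture, fewer cells of a type and less RNA per cell cannot be told apart. Over all 13533 genes measured, 48.2% were lower and the median difference was 0.007.

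**Figure D1:**
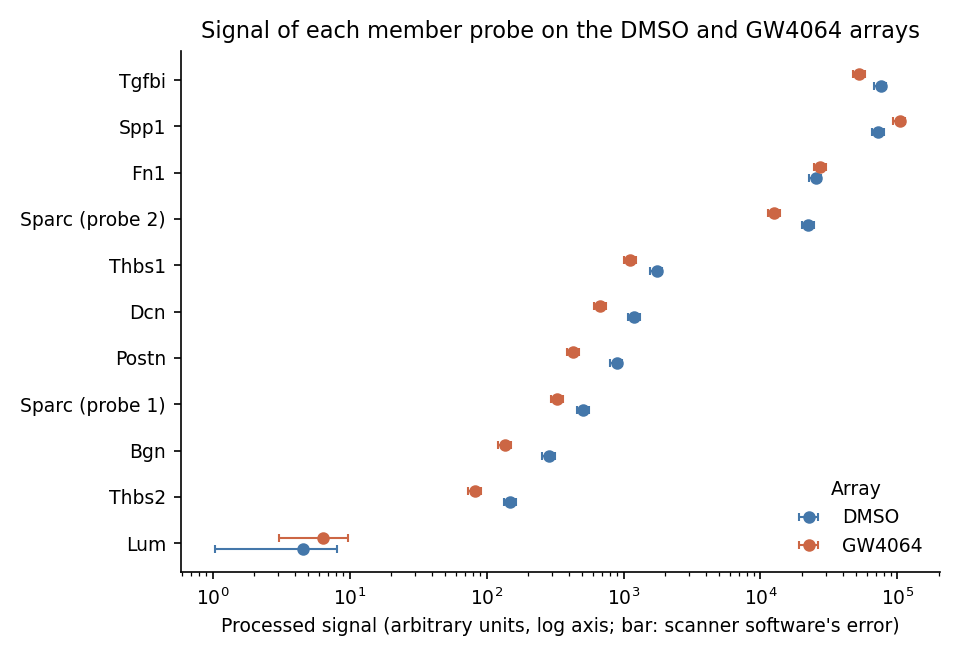
Signal of each of the 11 probes with DMSO (blue) and with GW4064 (orange), as deposited and before scaling, on a log axis in arbitrary units, with bars for the error given by the scanner software. Points of GW4064 lie to the left of DMSO for every probe of Bgn, Postn, Thbs2, Dcn, Sparc, Thbs1 and Tgfbi, and the bars overlap for Fn1 and Lum.

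Decorin and biglycan, the small leucine-rich proteoglycans detected among the members, were both lower with GW4064. Bgn encodes biglycan, which carries chondroitin or dermatan sulfate chains and can activate Toll-like receptors when released from the matrix. Its signal was 285 with DMSO and 136 with GW4064, a log2 difference of -1.13 ± 0.21, or 2.20-fold lower. Dcn encodes decorin, which binds collagen I and TGF-β. Its signal was 1191 with DMSO and 676 with GW4064, a log2 difference of -0.88 ± 0.20, or 1.84-fold lower. The probe for Lum, which encodes the keratan sulfate proteoglycan lumican, had signals of 4.55 with DMSO and 6.42 with GW4064, with errors of 3.51 and 3.36, and both lay below the lowest signals counted as well above background (15.7 and 15.1). Bgn was the member with the largest difference, and its gap to the next member, Postn, was 0.02 on the log2 scale, below their combined error of 0.29.

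Sparc encodes osteonectin, a collagen-binding protein that takes part in matrix assembly, and was read by probes of very different brightness. The brighter probe had a signal of 22294 with DMSO and 12535 with GW4064, a log2 difference of -0.90 ± 0.20. The dimmer probe had 507 and 328, a log2 difference of -0.69 ± 0.20. The probes pointed the same way and differed by 0.20, less than their combined error of 0.29. Their mean was -0.80 ± 0.14, or 1.74-fold lower. Within 0.5 of the mean log2 level of Sparc there were 1480 genes, and 0.541% of them had a difference as low as that of Sparc or lower. That level is the mean over both probes and lies near neither, so these genes match the brightness of neither probe.

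Postn encodes periostin, which links collagen to tenascin and fibronectin and binds integrins. Its signal was 891 with DMSO and 431 with GW4064, a log2 difference of -1.11 ± 0.20, or 2.16-fold lower. Tgfbi encodes a protein of the same fasciclin domain family and is induced by TGF-β. Its signal was 75423 with DMSO and 52836 with GW4064, a log2 difference of -0.58 ± 0.20, or 1.49-fold lower. Postn and Tgfbi are thus relatives that stood at different ends of the members that were lower. The gap of Tgfbi to its neighbor in the order, Thbs1, was 0.12, below their combined error of 0.29.

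Both thrombospondins, secreted glycoproteins that bind CD36 and CD47 and restrain the growth of blood vessels, were lower with GW4064. Thbs1, whose product also activates latent TGF-β and is stored in platelets, had a signal of 1748 with DMSO and 1124 with GW4064, a log2 difference of -0.70 ± 0.20, or 1.63-fold lower. Thbs2, which is made mainly by fibroblasts, had 149 and 82.4, a log2 difference of -0.92 ± 0.22, or 1.89-fold lower. These were the 2 members whose spots lay in areas of the slide with several extreme spots, called damaged areas here, which held 16.5% of all spots. The name rests on differences between the arrays alone, and physical damage was not examined. Within 300 µm there were 2 other spots that differed 8-fold or more around Thbs1 and 3 around Thbs2, against at most 1 around every other member. Neighboring spots up to 5 rows and columns away had a median log2 difference of -0.01 around Thbs1 and -0.02 around Thbs2. Around the other probes of measured members this median lay between -0.19 (the brighter Sparc probe) and 0.006 (Fn1). It was -0.14 around Postn, -0.13 around Bgn and Spp1, and -0.10 around Dcn and Tgfbi. The differences of the members were not adjusted for it.

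Fn1 and Spp1 did not share the lower signal. Fn1 encodes fibronectin, the glycoprotein that cells bind through α5β1 and αv integrins and on which matrix fibrils assemble. Its signal was 25320 with DMSO and 27260 with GW4064, a log2 difference of 0.04 ± 0.20, smaller than its error. The sign of Fn1 changed with the scaling, being negative under 3 of the 12 settings tried, with -0.13 as the lowest value (scaling to the spike-in control RNA). Spp1 encodes osteopontin, an acidic phosphoprotein of bone and of macrophages that binds αv integrins and CD44. Its signal was 72132 with DMSO and 103710 with GW4064, a log2 difference of 0.46 ± 0.20, or 1.37-fold higher. Of all genes measured, 6.31% had a difference as high or higher, and 3.77% did among the 159 genes of like signal. The gap between Tgfbi and Fn1 (0.62) and that between Fn1 and Spp1 (0.42) exceeded the combined errors of 0.29, whereas all 6 gaps between neighbors among the 7 lower members were below theirs. Those gaps concern neighbors only, and the ends of the 7, Bgn and Tgfbi, differed by 0.56, with errors of 0.21 and 0.20.

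**Figure D2:**
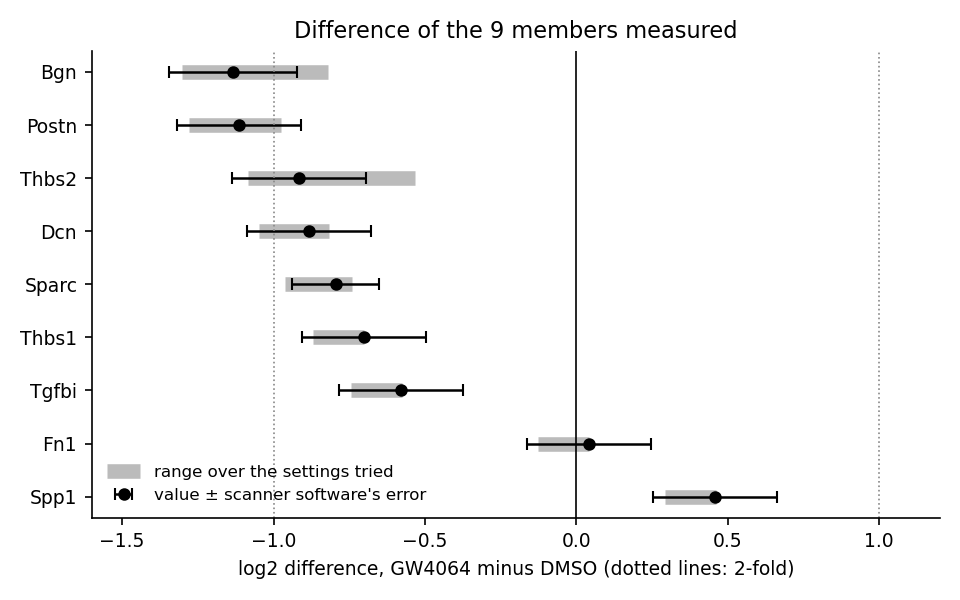
log2 difference (GW4064 minus DMSO) of the 9 members measured, with the error propagated from the scanner software (bars) and the range over the 12 settings tried (grey, 11 for Thbs1 and Thbs2). The 7 lower members lie between -1.13 and -0.58, Fn1 lies at 0.04 and Spp1 at 0.46, and dotted lines mark 2-fold.

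At 2-fold, 2 members were lower, Bgn and Postn, and 0 were higher, where 2.71% of all genes measured were 2-fold or more lower and 2.04% were 2-fold or more higher. At 1.5-fold, 6 members were lower and 0 higher, where the corresponding shares of all genes were 5.56% and 4.39%. Tgfbi, at 1.49-fold, lay just short of that limit. The 7 lower members spanned 0.56 on the log2 scale with an SD of 0.20 among them, and the median error of a single member was 0.20. Relative to all genes measured, 2.14% had a difference as low as that of Bgn or lower, 2.25% for Postn, 3.12% for Thbs2, 3.34% for Dcn, 3.93% for Sparc, 4.65% for Thbs1 and 5.61% for Tgfbi. Low signals scatter more, so the genes of like signal (within 0.5 of the mean log2 level) are the closer comparison. Among those, the share was 1.26% for Bgn, 0.543% for Postn, 3.13% for Thbs2, 0.862% for Dcn, 1.09% for Thbs1 and 1.02% for Tgfbi. The plot against mean level shows the 7 members along the lower edge of the genes of like signal.

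**Figure D3:**
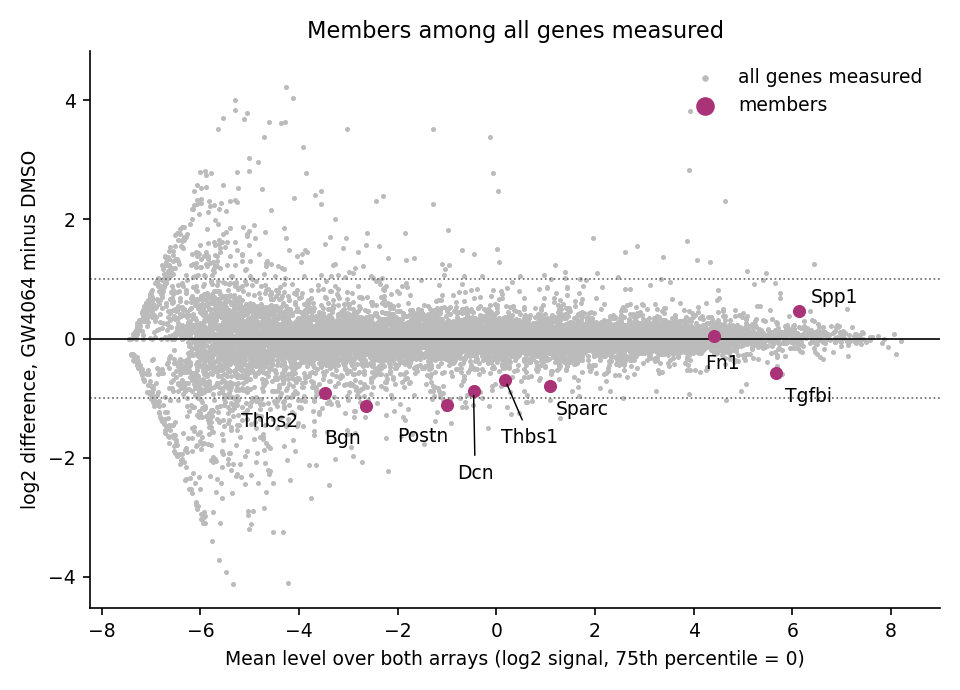
log2 difference (GW4064 minus DMSO) against the mean level over both arrays for all 13533 genes measured (grey) and the 9 members (purple), with dotted lines at 2-fold. Genes of low level scatter more widely, and all members except Fn1 and Spp1 lie below the bulk of the genes.

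Each of the 7 lower members was lower in every setting that measured it, 12 settings for Bgn, Dcn, Postn, Sparc and Tgfbi and 11 for Thbs1 and Thbs2, and Spp1 was higher in all 12. The 12 settings include the main one. Keeping marked spots, changing the filter on dim probes or dropping damaged areas could not move a member that stayed measured. All their probes were unmarked and above background on both arrays. Only Sparc had a second probe, so the brightest probe could move no other member. The deposited log2 table and median centring each moved every member by the same small constant, so they were no separate check. Fn1 was lower too in 3 settings, which made 8 lower members there. The number at 2-fold changed with the setting. Bgn was 2-fold or more lower in 11 of 12 settings and Postn in 11 of 12, the exception being a normexp background correction that draws dim signals together, with -0.82 and -0.98, and 0.473% of all genes were 2-fold or more lower there. With the spike-in RNA as the reference, the difference of the median gene was -0.16, and Dcn (-1.05) and Thbs2 (-1.08) also passed 2-fold, where 3.67% of all genes did and 79.0% were lower by any size. Relative to that median of all genes, the median of the members in this setting was -0.80. This scaling subtracts a constant from each array, so that value is nearly fixed by the main result and is no further check.

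Other matricellular genes, a list of 35 that held relatives of SPARC, thrombospondins, tenascins, CCN proteins and fibulins, were next set beside the members. Of 22 measured, 16 were lower and 5 higher, with 5 at 2-fold or more lower and 2 higher, and their median difference was -0.32, or -0.16 without a filter on dim probes. Fstl1, a follistatin relative of SPARC, was 2.23-fold lower, from 1170 to 549. Smoc2, another SPARC relative, was 2.56-fold lower, from 84.3 to 34.5. The CCN genes of the list, which encode cysteine-rich proteins bound to matrix and integrins, were measured for Ccn1, Ccn2 and Ccn4. Ccn1 went from 697 to 361, 2.02-fold lower, Ccn2 from 5425 to 2906, 1.95-fold lower, and the probes of Ccn4 gave a mean of at least 2.45-fold lower, with 1 of them not well above background on the GW4064 array. Fbln2, a fibulin of elastic fibers, was 2.41-fold lower. In the other direction, Sparcl1, the nearest relative of Sparc, had signals of 26.2 and 73.7, 2.69-fold higher, and Efemp1, a fibulin, had 36.7 and 89.4, 2.33-fold higher. The brightest probes of the list were those of Mfge8 (-0.26) and Gas6 (-0.15), which bridge dying cells to phagocytes, and of the scavenger receptor Stab1 (0.41). After the normexp correction Sparcl1 had 0.58, Efemp1 0.54, Smoc2 -0.75, Fbln2 -0.74 and Ccn4 -0.56. The spots of Sparcl1 and Smoc2 lay in the damaged areas of the slide.

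Among 38 other proteoglycans, 18 were measured, of which 12 were lower and 6 higher, with a median of -0.31, or -0.14 over genes above background on both arrays and -0.17 after the normexp correction. Prg2, the major basic protein of eosinophils, was 2.77-fold lower (132 and 49.9), and Cspg4, a pericyte proteoglycan, was 2.07-fold lower (133 and 67.5). Prg4, the joint lubricant lubricin, was at least 3.65-fold lower, and Gpc2, a cell surface heparan sulfate proteoglycan, at least 3.48-fold lower, both not well above background with GW4064. The spots of Prg2, Cspg4 and Gpc2 lay in the damaged areas. After the normexp correction Prg4 had -0.83, Gpc2 -0.56 and Cspg4 -0.71, and Ogn, described next, had 0.77. Ogn, which encodes osteoglycin and belongs to the same family as Dcn and Bgn, was 2.32-fold higher, from 121 to 295. Of the family's other genes on the list, Fmod had a difference of -0.42, Chad of -0.36, Podnl1 of -0.90 and Tsku of 0.50, and Aspn, Kera, Omd, Epyc, Podn, Nyx, Optc and Ecm2 were not well above background on either array. The brightest probes of the list were those of Gpc1 (0.37), a cell surface proteoglycan, of Srgn (0.47), the proteoglycan of leukocyte granules, and of Agrn (-0.27), one of basement membranes.

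Of 48 other matrix glycoproteins, 34 were measured, of which 21 were lower and 13 higher, with a median of -0.21 and 4 at 2-fold or more in each direction. Ltbp2 (2314 and 1011), Fbn1 (283 and 142), Mgp (458 and 225) and Ltbp1 (45.9 and 23.5) were between 2.05-fold and 2.40-fold lower. Fbn1 encodes the microfibril protein fibrillin 1, to which some of the LTBP proteins attach latent TGF-β, and Mgp encodes an inhibitor of calcification. Ltbp3, of the same LTBP family, was 2.74-fold higher on the mean of its 2 probes, both of which were higher. Fras1, Tinagl1 and Vit were at least 2.63-fold, 2.49-fold and 2.34-fold higher, each not well above background with DMSO, and all 3 spots lay in the damaged areas, as did those of Ltbp1 and Ltbp2. After the normexp correction Fras1 had 0.45, Tinagl1 0.48, Vit 0.46, Ltbp1 -0.61, Fbn1 -0.75 and Mgp -0.92. Ecm1 (-0.23) and Emilin2 (-0.56) were, with Ltbp3, the brightest of the list.

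**Figure D4:**
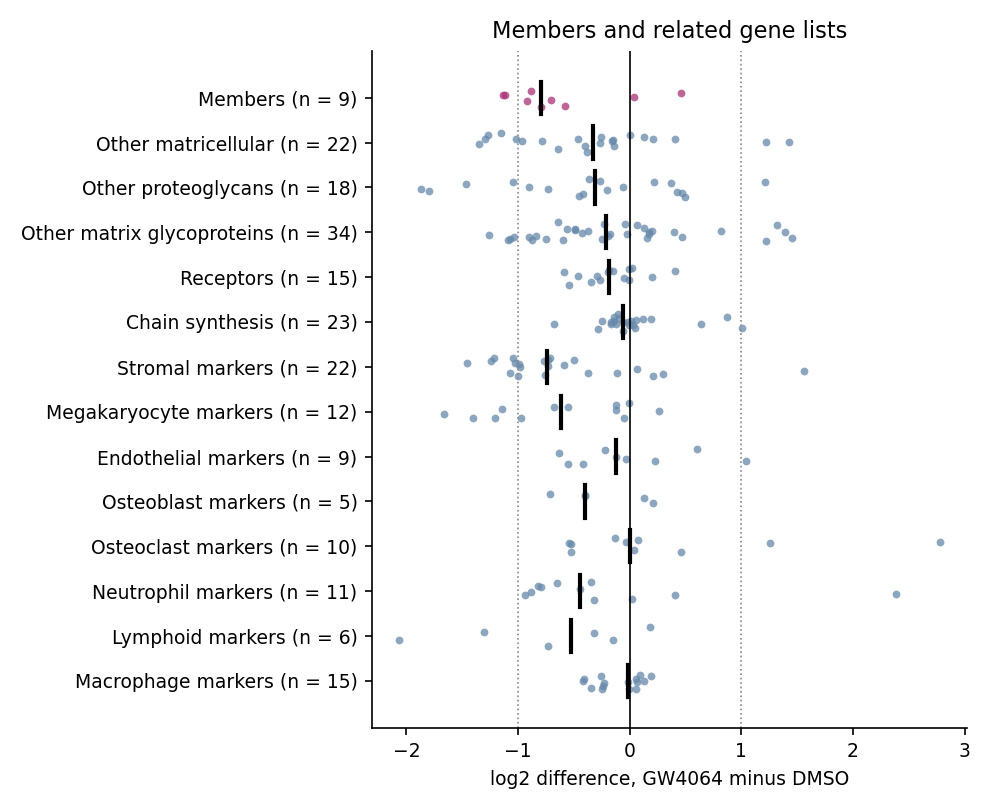
log2 difference (GW4064 minus DMSO) of each measured gene (points) of the members and of 13 gene lists, with the median of each list as a black bar, n for the number measured, and dotted lines at 2-fold. The median lies at -0.80 for the members and -0.74 for the stromal markers, and at -0.02 for the macrophage markers. For the other marker lists it lies at -0.62 (megakaryocyte), -0.53 (lymphoid), -0.45 (neutrophil), -0.40 (osteoblast), -0.13 (endothelial) and 0.003 (osteoclast).

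The receptors that bind these proteins differed less by their median. Of 19 receptor genes 15 were measured, of which 12 were lower, 3 were higher and 0 were 2-fold or more different, and the median was -0.19. Cd36, the thrombospondin and lipid receptor, had 0.02, and its sign changed in 4 settings. Cd47 had -0.20, Itgb5 -0.29, and Itgb3, the β3 integrin that binds osteopontin and fibronectin, -0.54 as the mean of 2 probes. Stab1, the scavenger receptor that takes up SPARC, had 0.41. Of 25 enzymes that build and sulfate the chondroitin and dermatan sulfate chains of decorin and biglycan, 23 were measured, 14 lower and 9 higher, with a median of -0.06. Chst15, a sulfotransferase, was 2.01-fold higher from low signals of 27.6 and 58.0. Its difference was 0.29 after the normexp correction. The brightest of these enzymes were Chpf2 (-0.17), Ugdh (-0.10) and Xylt2 (-0.004, positive with its brightest probe).

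Markers of stromal cells were lower together with the members. Of 26 markers of stromal cells and fibroblasts, members left out, 22 were measured, and 18 of them were lower and 4 higher, with a median difference of -0.74. Of these, 6 were 2-fold or more lower and 1 was 2-fold or more higher. The summed signal of the list, in units of the 75th percentile of its array, was 20.7 with DMSO and 10.97 with GW4064, a ratio of 0.530. For the members the sum was 156 and 152, a ratio of 0.977, with Tgfbi, Spp1 and Fn1 as the brightest. Such sums are led by the brightest probes of a list. The stromal markers 2-fold or more lower were Col6a1 (2573 and 1136), Tagln (3652 and 1878), Acta2 (2857 and 1446), Col5a1 (434 and 196), Fbn1 and Prrx1. Prrx1 was 2.74-fold lower by its measured signals (52.6 and 20.1), the latter not well above background. After the normexp correction Prrx1 had -0.37, Fbn1 -0.75 and Acta2 -0.99, and the median of the list was -0.44. Col1a2, a chain of collagen I and the brightest of the list, went from 10058 to 5296, a log2 difference of -0.99. Fap, a protease of activated fibroblasts, was 2.95-fold higher (112 and 347), and Kitl (0.30) was higher as well. Vcam1 (0.21) and Pdgfra (0.07) were the others counted as higher, and their sign changed in 3 and 4 of the 12 settings. No signal well above background was found for Twist1, Twist2 or Mfap5. The part of stromal cells in the lower signal of the members was not tested.

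The cells carried the markers of their label. All 15 macrophage markers with a matched probe were well above background on both arrays, with a median difference of -0.02, 0 at 2-fold or more, and summed signals of 474 and 436 in units of the 75th percentile. Tyrobp (-0.007, positive with normexp), Ctss (-0.23) and Csf1r (-0.24) were the brightest. Of 14 megakaryocyte markers, which matter for Thbs1, 12 were measured and 11 of these were lower, with a median of -0.62, but 5 had no signal well above background with GW4064, and the median was -0.12 over genes above background on both arrays and -0.16 after the normexp correction. Their summed signals were 36.9 and 39.4, of which Pf4 (0.26), a gene that macrophages also transcribe, and Vwf (-0.13) made up the most, followed by Treml1 (-0.004). Ppbp was 3.16-fold lower. Itga2b, Gp9 and Gp1ba were 2.21-fold, 2.31-fold and 2.65-fold lower by their measured signals, which were not well above background with GW4064. After the normexp correction Itga2b had -0.20, Gp9 -0.35 and Gp1ba -0.44. Gp5 and Tubb1 had no signal well above background.

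Osteoclast markers, which matter for Spp1, had a median of 0.003 over 10 genes, 5 higher and 5 lower, with a sign that changed with the setting. Their summed signals were 145 and 212. Acp5, the tartrate-resistant phosphatase that removes phosphate from osteopontin, was 2.39-fold higher and Mmp9 6.88-fold higher, while Dcstamp had -0.53 and Atp6v0d2 0.04, the latter being negative with the spike-in scaling. The list of 11 osteoblast markers had 5 measured genes with a median of -0.40 (-0.16 without a filter on dim probes), and its summed signals of 1.88 and 1.17 came mostly from Col1a1 (-0.72), with Runx2 (-0.40) and Mepe (-0.40) dim. Bglap2, Sp7, Dmp1, Phex and Sost had no signal well above background. Endothelial markers had a median of -0.13 over 9 genes, 6 of them lower, with summed signals of 16.0 and 15.9. Stab2 among them was 2.06-fold higher and Kdr had -0.03, which turned positive with the brightest probe alone. Tek, Tie1, Erg and Sox17 had no signal well above background. Neutrophil markers had a median of -0.45 over 11 genes, 8 of them lower, with summed signals of 12.0 and 7.95. After the normexp correction their median was -0.44, as was that of the stromal markers. S100a9 (-0.88), S100a8 (-0.45) and Elane (-0.34) were the brightest, and Cebpe was 5.23-fold higher. Lymphoid markers had a median of -0.53 over 6 genes, 5 of them lower, with summed signals of 1.66 and 1.41. That median was -0.31 after the normexp correction, -0.24 without a filter on dim probes, and -0.32 both over genes above background on both arrays and without damaged areas. Cd4 (-0.15), Cd79b (-0.32) and Cd3e (0.18) were the brightest. Cd3d, Cd3g, Cd8a, Cd79a and Ncr1 had no signal well above background. Ms4a1 was at least 2.47-fold lower, with -0.57 after the normexp correction. Klrb1c was lower by both of its probes, with a mean of at least 4.18-fold. Of these probes, 1 was not well above background with GW4064. The mean of -2.06 ran from -3.60 to -0.53 over the settings. The Klrb1c probes differed in size and 1 spot lay in a damaged area. The part of these cell types in the members' differences was not tested.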

How the data were processed

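For each array the authors deposited spot intensities from Agilent Feature Extraction 10.7.1.1, corrected for background and for trends within the array but not scaled between arrays, and a log2 table of both. Per the file headers, the arrays shared 1 slide and 1 scan. The normalization and filter of the authors are not given in the sources used here. Probe differences in their log2 table equalled those computed here apart from a constant, before bounds were set for probes above background on 1 array. A free-text label of the GW4064 sample repeats the DMSO wording, and the other labels give GW4064.

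From the intensities, log2 minus the 75th percentile of each array was computed over 43020 spots (39429 probes), without spots marked as non-uniform (215 and 30) or as outliers among copies. A probe well above background on 1 array got on the other whichever was higher, its measured value or the lowest one well above background on that array. Where the lowest one was used, the fold is written as "at least N-fold". There were 21707 probes above background on both arrays, 1230 on GW4064 alone and 812 on DMSO alone. Gene values are means over probes. Accessions were matched to symbols of GRCm38.p6 (26581 probes). Coordinates are left out, because the array was designed on a different build. Damaged areas are spots with 2 or more others that differed 8-fold or more within 300 µm.

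Members and lists were chosen with earlier results of these data known, and genes outside the members were named for a 2-fold difference or for being among the 3 brightest of their list. Ccn2, Itgb3, Kitl, Vcam1, Pdgfra, genes without signal and the further small leucine-rich proteoglycans were named after their values had been seen. Steps were tested on simulated data made from the DMSO array. All 200 planted 4-fold changes on bright probes were recovered with the right sign at 2-fold or more. Changes as small as those of the members, and the bounds for dim probes, were not tested there. Calculations used R 4.3.3, limma 3.58.1 (normexp, offset 50, on the median spot intensity), Python 3.11.15, pandas 2.3.3 and statsmodels 0.14.6. The closing section gives the alternatives with their effects.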

Additional observations from a re-analysis of the deposited data

How the results depend on the processing

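No paired analysis was possible because a single array was made per condition. Naming probes from a gene name column was planned and was not run, since the array files used here have no such column. How many arrays there were limits how precise every value is. The number of members lower (7) was 8 with quantile normalization, spike-in centring and a loess of the difference (span 0.3), and the number higher (2) was 1 in each, as Fn1 had -0.0065, -0.13 and -0.00099 there. The share of all genes lower was 50.7%, 79.0% and 51.4% in these settings, against 48.2% in the main one. Without damaged areas, Thbs1 and Thbs2 could not be measured and 5 members were lower. The number 2-fold or more lower (2) was 4 with spike-in centring, 0 with normexp (offset 50), 6 at 1.5-fold and 0 at 4-fold. Of all genes, 3.67% were 2-fold or more lower with spike-in centring and 0.473% with normexp, against 2.71%. The median of the members lay between -0.96 (spike-in centring) and -0.71 (normexp). The median of the stromal markers lay between -0.91 and -0.44 in the same settings. The median of the osteoclast markers (0.003) was -0.018 with quantile normalization, -0.023 with median centring, -0.16 with spike-in centring, -0.021 with loess, -0.031 with normexp and -0.036 without a filter on dim probes. The counts of members lower, higher and 2-fold or more lower did not change with median centring, the deposited log2 table or the brightest probe. Keeping marked spots and requiring or dropping the background filter left them as they were too. Those last settings could not alter the counts, which cover the 9 members measured in the main setting. Median centring and the deposited log2 table move every member by the same small constant, so they were no separate check. The cause of the changes between settings was not tested.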
